A study of Mus musculus with 6 samples.

Results

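The genes described here encode the egg coat and the surface and secreted proteins through which a mouse oocyte meets sperm. They are the 3 zona pellucida glycoprotein genes Zp1, Zp2 and Zp3, the cortical granule protease gene Astl, the sperm receptor gene Izumo1r, the tetraspanin gene Cd9 and the oocyte-secreted protein genes Oosp1, Oosp2 and Oosp3. These 9 genes were named by symbol and looked up by Ensembl identifier in the deposited table of 28738 genes, where all 9 were present.

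RNA sequencing compared Uba3 cKO mice with control mice in fully-grown germinal vesicle (GV) oocytes, which rest in the first meiotic prophase. The product of Uba3 is the catalytic part of the E1 enzyme for the ubiquitin-like protein NEDD8, and cKO stands for conditional knockout. Each group had 3 libraries, each made from a pool of about 150 oocytes, and both groups carried the label C57/Bl6/N;129SvEv7 strain. The sources used here do not give the Cre driver, the deleted part of Uba3, the alleles of the controls, the age of the mice or whether the pools came from separate animals. Levels below are on the log2 scale as the authors normalized and deposited them, and library depth is unknown.

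The zona pellucida is the extracellular coat of the egg, a mesh of filaments built from ZP1, ZP2 and ZP3 that the growing oocyte secretes. Its genes depend on the oocyte transcription factor FIGLA, which pairs with E proteins such as TCF3 to bind E-boxes. After fertilisation the egg releases its cortical granules, and their protease ovastacin, the product of Astl, cleaves ZP2 so that further sperm no longer bind. On the plasma membrane beneath, JUNO, the product of Izumo1r, binds sperm IZUMO1, and CD9 is needed for the fusion of the gametes.

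The promoter sequences are shown because the members differ widely in level and because E-boxes are the known control element of zona genes. RefSeq promoters on the GRCm38.p6 assembly were matched by symbol for 5 members with 1 annotated start each, and the 250 bases before that start are given 5′ to 3′, with E-boxes (CANNTG, the same on both strands) in capitals. Astl has 2 starts in that table and is not shown. Zp1, Zp2 and Oosp3 have no promoter there, so of the zona genes only Zp3 could be examined. The windows are chr5:135979855-135980104 (plus strand) for Zp3, chr9:14903768-14904017 (minus) for Izumo1r, chr6:125494761-125495010 (minus) for Cd9, chr19:11691052-11691301 (minus) for Oosp1 and chr19:11660560-11660809 (minus) for Oosp2.
Zp3: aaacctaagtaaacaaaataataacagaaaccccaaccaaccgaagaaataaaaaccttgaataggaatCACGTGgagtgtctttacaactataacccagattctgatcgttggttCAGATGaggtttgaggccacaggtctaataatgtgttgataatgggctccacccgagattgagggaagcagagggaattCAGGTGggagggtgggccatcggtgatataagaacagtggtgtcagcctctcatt
Izumo1r: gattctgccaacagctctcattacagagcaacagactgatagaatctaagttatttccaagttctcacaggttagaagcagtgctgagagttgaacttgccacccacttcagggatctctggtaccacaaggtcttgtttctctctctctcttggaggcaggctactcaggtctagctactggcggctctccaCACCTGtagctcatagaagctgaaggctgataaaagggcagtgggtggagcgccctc
Cd9: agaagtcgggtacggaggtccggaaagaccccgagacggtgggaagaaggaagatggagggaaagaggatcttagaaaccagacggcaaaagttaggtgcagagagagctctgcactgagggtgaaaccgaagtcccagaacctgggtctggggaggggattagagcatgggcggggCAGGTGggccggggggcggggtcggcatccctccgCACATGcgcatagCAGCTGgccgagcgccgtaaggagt
Oosp1: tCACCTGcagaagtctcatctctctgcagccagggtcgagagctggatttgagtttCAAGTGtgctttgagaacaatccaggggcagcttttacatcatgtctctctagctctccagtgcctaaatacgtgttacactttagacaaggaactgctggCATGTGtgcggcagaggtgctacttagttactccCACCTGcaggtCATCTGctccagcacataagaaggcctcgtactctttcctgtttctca
Oosp2: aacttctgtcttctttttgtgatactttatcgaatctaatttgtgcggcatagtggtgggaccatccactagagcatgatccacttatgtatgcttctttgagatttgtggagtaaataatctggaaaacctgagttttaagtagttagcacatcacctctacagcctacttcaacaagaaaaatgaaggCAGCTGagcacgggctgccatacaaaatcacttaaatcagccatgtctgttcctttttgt

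The windows held 3 E-boxes for Zp3, 1 for Izumo1r, 3 for Cd9, 5 for Oosp1 and 1 for Oosp2. An E-box occurred in 66.2% of the 32851 promoters in the table, so its presence does not set these genes apart. The form CACGTG, found in 6.02% of promoters, was present in the Zp3 window, beginning 181 bases before the start. CAGGTG or its reverse complement CACCTG, both of them also E-boxes and found in 17.2% of promoters, occurred in the windows of Zp3, Izumo1r, Cd9 and Oosp1. The window of Cd9, a gene active in many tissues, was 61.6% G and C. Those of the other 4 were between 39.6% and 50%, against a median of 52.4% over all promoters. These matches describe the letters only.

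Facts of the libraries bear on every value below. Uba3 itself was 10.03, 10.16 and 10.36 in the Uba3 cKO libraries and 11.37, 11.46 and 11.34 in the control libraries, so the targeted gene was lower in each library labelled as knockout. Oocyte markers were all present, with Gdf9 at a mean of 16.68 in Uba3 cKO and 16.85 in control oocytes. The summed linear value of the 8 oocyte markers ranged from 288579 to 328865 in Uba3 cKO libraries and from 322950 to 387525 in control libraries. Markers of other ovarian cells were also detected. Here and below, a gene that rose or fell was called higher or lower by the rule given further on. By that rule 5.64% of all genes tested rose and 2.5% fell. Of 12 theca, stroma and luteal markers 11 passed the filter on low values and 6 fell, and their summed linear value ranged from 2409 to 3055 in Uba3 cKO libraries and from 3365 to 5470 in control libraries. The largest part of that sum was Hsd3b1, which was not called (mean linear value 1286 in Uba3 cKO and 2036 in control libraries). The sums were 13176 to 17485 against 15038 to 16105 for 12 granulosa and cumulus markers, of which 10 were kept and 2 rose. They were 3088 to 3444 against 3197 to 3543 for 10 blood and endothelial markers, all kept, of which 3 fell. Most of this last sum was Pecam1 (mean linear value 2525 in Uba3 cKO and 2524 in control libraries), so it says little of the other markers. The 3 that fell were Tie1 (123 in Uba3 cKO and 184 in control libraries), C1qb (251 and 319) and Hbb-bs (50 and 64). Tcf21, Ptx3 and Tnfaip6 lay under the filter, and no marker was listed at 0. The part of such cells in the results below was not tested, and in pooled oocytes fewer cells of a type and less RNA per cell cannot be told apart.

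The egg coat and egg surface genes spanned a wide range of levels. To compare genes, each log2 value was turned back into a linear one and divided by transcript length in kilobases. Zp2 stood highest, at 29023 to 38814 per kilobase over the 6 libraries. Oosp1, at 27707 to 38147, overlapped with it in range, so the order of these 2 is not resolved. Next came Oosp3 (19198 to 26021) and Zp3 (14946 to 20245), which overlapped with each other and lay below both. Oosp2 reached 7029 to 8807 and Astl 4370.2 to 5316, with no overlap between these neighbours or with Zp3 above. Izumo1r, at 1971 to 3104, overlapped with Zp1, at 1169.6 to 2155. Cd9 was far below, at 85.4 to 109, and the mean of Zp1, the gene next above it, was 17.1 times higher. Together the 9 genes supplied 0.697%, 0.644% and 0.643% of the summed linear values of Uba3 cKO libraries 1, 2 and 3, and 0.689%, 0.791% and 0.786% of those of control libraries 1, 2 and 3. The groups thus overlapped in this share.

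Between the groups, 1 of the 9 genes was called lower, none was called higher and 8 were not called. A gene was called at an adjusted p under 0.05 in limma, with Benjamini-Hochberg adjustment over the 17450 genes that passed the filter, and all 9 members passed it in every library. By the same rule 2.5% of all genes tested were called lower, 5.64% higher and 8.14% in either direction. The median log2 difference (Uba3 cKO minus control) was -0.13 over the 9 genes and -0.01 over all genes tested. Of the 9, 6 had a negative and 3 a positive difference. Without control replicate 3 no member was called, and without control replicate 1 a second member, Izumo1r, was called lower.

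**Figure D1:**
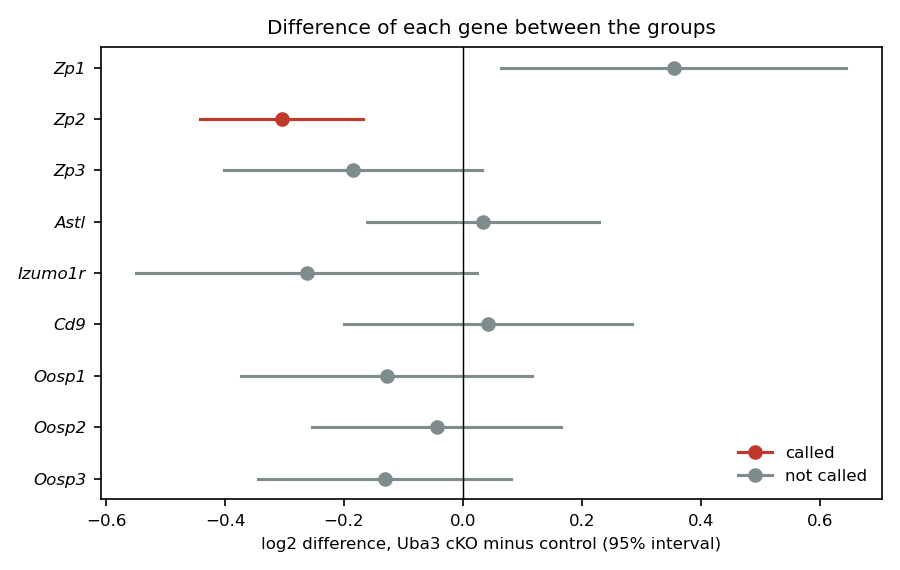
Log2 difference between Uba3 cKO and control oocytes for each of the 9 genes, with its 95% interval from limma (n = 3 libraries per group, intervals not adjusted for multiple tests). Zp2 is the called gene, at -0.30, and the highest difference is that of Zp1, at 0.35.

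Among the zona pellucida genes, Zp2 was lower in Uba3 cKO oocytes. Zp2 (ENSMUSG00000030911, chromosome 7) encodes the glycoprotein to which sperm bind and which ovastacin cleaves. Its log2 values were 16.05, 15.98 and 16.03 in Uba3 cKO libraries 1, 2 and 3, against 16.25, 16.40 and 16.33 in control libraries 1, 2 and 3. Every Uba3 cKO library was below every control library, and the values within each group were close together. The difference was -0.30 (SE 0.06, 95% interval -0.44 to -0.17), which is 81.0% of the control level, with an adjusted p = 0.0100 in limma. Over all genes tested the groups did not overlap for 27.9%. With 3 libraries on each side an exact permutation test (two-sided) cannot go below p = 0.1, and it gave that value.

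Zp2 was among the most abundant RNAs of either group, and its position in that order shifted as well. Among the 17450 genes it ranked 12, 11 and 13 by linear value in the Uba3 cKO libraries and 9, 8 and 9 in the control libraries, without overlap. The call was lost under quantile normalization (-0.14, adjusted p = 0.0537). It was also lost without control replicate 3 (-0.30, adjusted p = 0.0543).

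Zp1, whose product cross-links the filaments of ZP2 and ZP3, was not called. Zp1 (ENSMUSG00000024734, chromosome 19) stood at 12.05, 11.76 and 11.68 in Uba3 cKO libraries 1, 2 and 3, and at 11.52, 11.16 and 11.74 in control libraries 1, 2 and 3. The groups overlapped through control library 3, and control library 2 was the lowest. The difference was 0.35 (SE 0.14, 95% interval 0.06 to 0.64), and its unadjusted p of 0.0205 in limma became 0.132 after adjustment over all genes. Without control replicate 2 the difference was 0.20.

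Zp3, which forms the filaments together with ZP2, was not called either. Zp3 (ENSMUSG00000004948, chromosome 5) stood at 14.57, 14.27 and 14.32 in Uba3 cKO libraries and at 14.36, 14.64 and 14.71 in control libraries. Control library 1 lay within the range of the Uba3 cKO libraries. The difference was -0.18 (SE 0.10, 95% interval -0.40 to 0.03, adjusted p = 0.3003 in limma). It was -0.29 without control replicate 1 and -0.12 without control replicate 3.

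**Figure D2:**
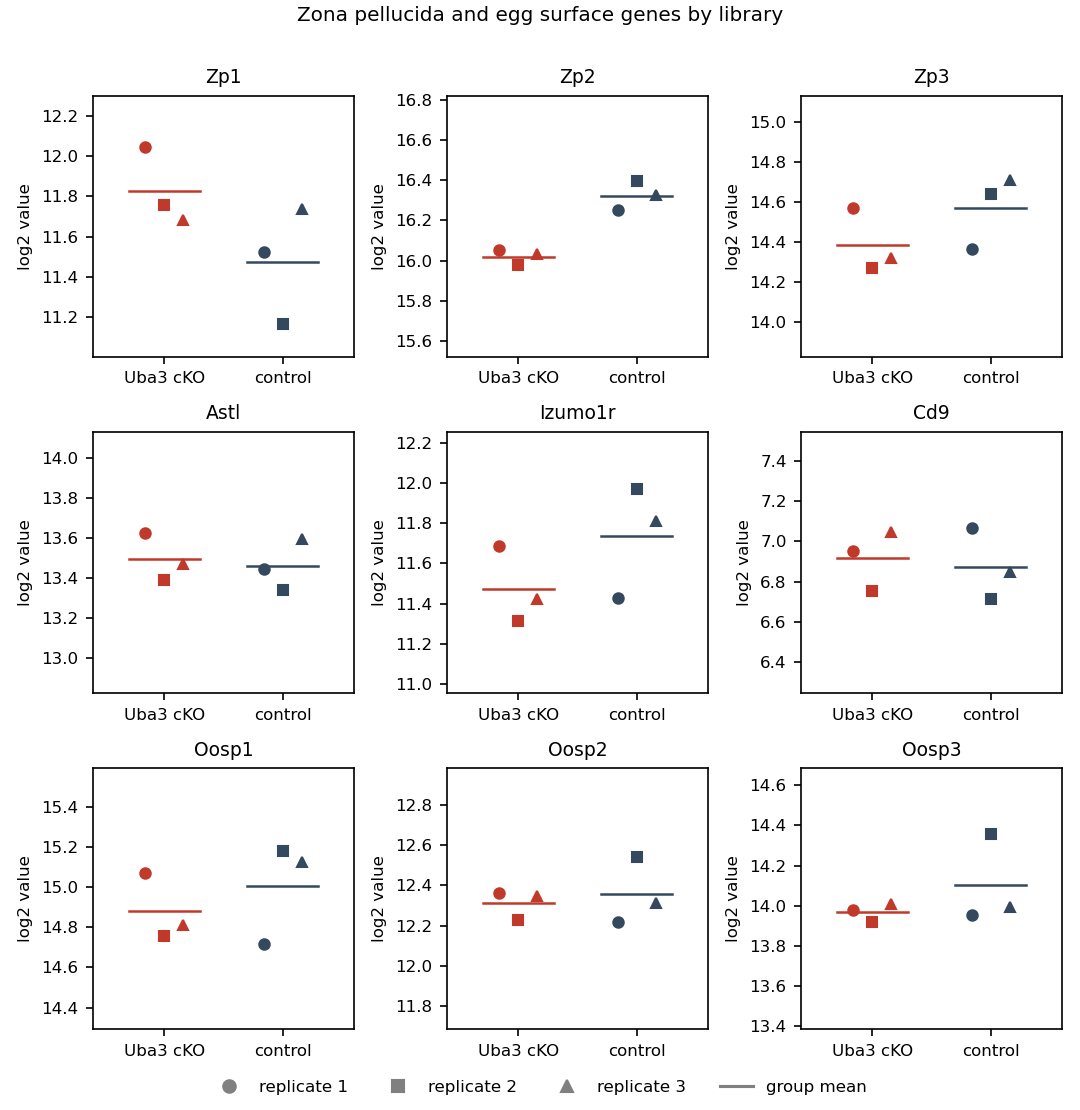
Deposited log2 value of each gene in the 6 libraries, with symbols for replicate number and lines for group means. Each panel has its own axis of the same span, and Zp2 is the gene whose groups do not overlap, at 15.98 to 16.05 in Uba3 cKO and 16.25 to 16.40 in control libraries.

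Ratios within a library, which a single scaling factor per library leaves as they are, set the coat genes against each other. The log2 ratio of Zp2 to Zp1 was 4.005, 4.22 and 4.35 in Uba3 cKO libraries 1, 2 and 3, and 4.73, 5.23 and 4.59 in control libraries 1, 2 and 3. It was lower in every Uba3 cKO library, with means of 4.19 ± 0.17 in Uba3 cKO and 4.85 ± 0.34 in control oocytes (SD, n = 3 each). The difference of -0.66 had an exact two-sided permutation p = 0.1, the smallest possible, and 0.15 after adjustment over the 3 ratios. The ratio of Zp1 to Zp3 also did not overlap, at -2.56 ± 0.07 in Uba3 cKO and -3.10 ± 0.34 in control oocytes (SD, n = 3 each). Its difference of 0.54 had the same exact permutation p of 0.1 and the same adjusted value of 0.15. The 2 ratios share Zp1, and without control replicate 2 their differences were -0.47 and 0.35. For Zp2 to Zp3 the means were 1.63 ± 0.13 in Uba3 cKO and 1.75 ± 0.13 in control oocytes (SD, n = 3 each), and the groups overlapped (difference -0.12, exact permutation p = 0.4, adjusted 0.4). That difference was between -0.0444 (without Uba3 cKO replicate 1) and -0.19 (without control replicate 3) when 1 library was left out. Under quantile normalization, which does not keep ratios, the differences were -0.46 for Zp2 to Zp1, 0.47 for Zp1 to Zp3 and 0.0057 for Zp2 to Zp3.

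**Figure D3:**
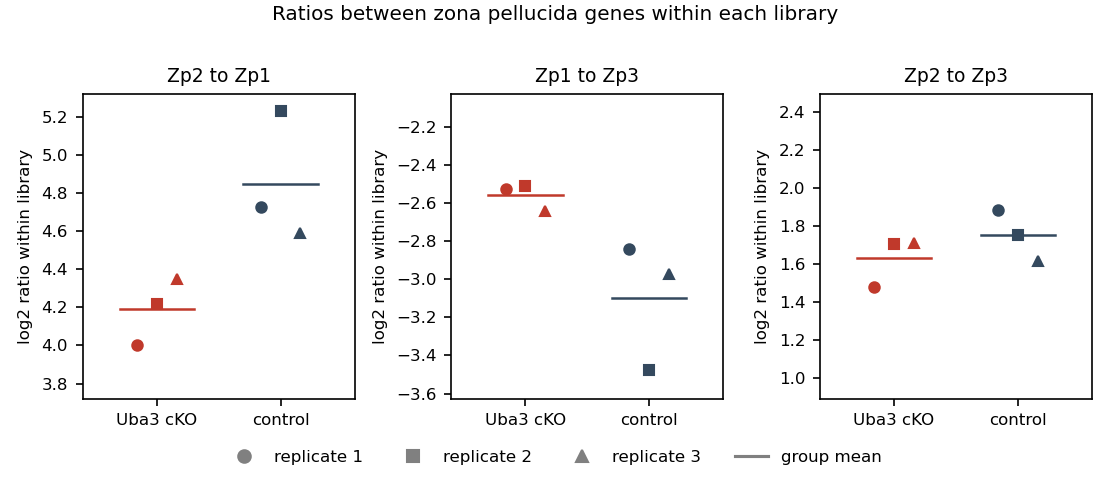
Log2 ratios between zona pellucida genes within each library, with symbols for replicate number and lines for group means. The Zp2 to Zp1 ratio lies between 4.005 and 4.35 in Uba3 cKO and between 4.59 and 5.23 in control libraries, and the Zp2 to Zp3 ratio overlaps between the groups.

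Per kilobase of transcript, Zp1 made up 3.87% ± 0.34 of the zona RNA in Uba3 cKO oocytes and 2.59% ± 0.54 in control oocytes (SD, n = 3 each). Zp2 made up 62.3% ± 2.2 in Uba3 cKO and 64.99% ± 2.1 in control oocytes, and Zp3 33.8% ± 1.9 in Uba3 cKO and 32.4% ± 2.0 in control oocytes (SD, n = 3 each). Zp1 RNA was thus the minor part of the coat transcripts in both groups. The summed level of the 3 genes, which Zp2 dominates, was 16.48 ± 0.07 in Uba3 cKO and 16.74 ± 0.09 in control oocytes on the log2 scale (SD, n = 3 each). The difference of -0.26 left no overlap between the groups (exact two-sided permutation p = 0.1), and under quantile normalization it was -0.12.

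Astl and the membrane proteins of fusion showed no called difference. Astl (ENSMUSG00000050468, chromosome 2), the gene of the protease that cleaves ZP2, stood at 13.63, 13.39 and 13.47 in Uba3 cKO libraries and at 13.45, 13.34 and 13.60 in control libraries. The groups overlapped, with a difference of 0.03 and a 95% interval of -0.16 to 0.23 (adjusted p = 0.869 in limma). That interval does not reach the value of Zp2, -0.30. The 2 differences were not compared by a test.

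Izumo1r (ENSMUSG00000031933, chromosome 9), whose product JUNO is held in the membrane by a glycosylphosphatidylinositol (GPI) anchor, had 11.69, 11.31 and 11.42 in Uba3 cKO libraries 1, 2 and 3. In control libraries 1, 2 and 3 it had 11.43, 11.97 and 11.81. Control library 1 stood at the level of the Uba3 cKO libraries, and the other 2 controls lay above all of them. The difference was -0.26 (SE 0.13, 95% interval -0.55 to 0.02, adjusted p = 0.264 in limma). It was -0.42 with an adjusted p = 0.0347 without control replicate 1, and -0.15 without control replicate 2.

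Cd9 (ENSMUSG00000030342, chromosome 6), a tetraspanin of the egg microvilli that many somatic cells also express, had the lowest level of the 9 genes. Its values were 6.95, 6.75 and 7.04 in Uba3 cKO libraries and 7.07, 6.71 and 6.85 in control libraries, with full overlap. The difference was 0.04 (95% interval -0.20 to 0.28, adjusted p = 0.868 in limma).

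The OOSP genes encode small proteins secreted by the oocyte and related to the placental protein PLAC1. In the RefSeq annotation of GRCm38.p6, Oosp2, Oosp1 and Oosp3 are neighbouring protein-coding genes on chromosome 19, the chromosome of Zp1. Oosp1 (ENSMUSG00000041857) stood at 15.07, 14.75 and 14.81 in Uba3 cKO libraries and at 14.72, 15.18 and 15.13 in control libraries. Control library 1 was the lowest of all 6, so the groups overlapped, and the difference was -0.13 (95% interval -0.37 to 0.12, adjusted p = 0.546 in limma). Leaving out 1 library gave values between -0.27 (without control replicate 1) and -0.0426 (without control replicate 2), and quantile normalization gave -0.0481.

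Oosp3 (ENSMUSG00000055933) stood at 13.98, 13.92 and 14.01 in Uba3 cKO libraries and at 13.95, 14.36 and 14.00 in control libraries. Its difference of -0.13 (95% interval -0.34 to 0.08, adjusted p = 0.468 in limma) rested on control library 2, and was -0.0036 without it. Oosp2 (ENSMUSG00000055895) stood at 12.36, 12.23 and 12.35 in Uba3 cKO libraries and at 12.22, 12.54 and 12.31 in control libraries, a difference of -0.04 (95% interval -0.25 to 0.17, adjusted p = 0.834 in limma). None of the 3 neighbours was thus distinguishable between the groups at this spread.

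The spread within groups had a pattern, parts of which several oocyte markers outside the 9 genes shared (see Other observations). How common it is among all genes tested was not counted. Uba3 cKO library 1 was the highest of its group for 7 of the 9 genes, all but Cd9 and Oosp3, and Uba3 cKO library 2 was the lowest for 8, all but Zp1. Among the controls, library 1 was the lowest for 6 genes, namely Zp2, Zp3, Izumo1r and the 3 OOSP genes, while library 2 was the lowest for the other 3, Zp1, Astl and Cd9. Control library 2 was the highest of all 6 libraries for 5 genes, Zp2, Izumo1r, Oosp1, Oosp2 and Oosp3, and the lowest of all 6 for Zp1, Astl and Cd9. Zp1 and Izumo1r, which deviated most from their own mean in that library, did so by -0.49 and 0.36.

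Transcription factors of zona genes were examined next. None of the 8 listed factors was called, against 8.14% of all genes tested in either direction. Nobox, a homeobox factor of the oocyte, stood at 12.51 in Uba3 cKO and 12.48 in control oocytes, and Taf4b, a subunit of a transcription initiation complex, at 10.55 in Uba3 cKO and 10.61 in control oocytes. Chosen after their values were seen, Figla, its partner gene Tcf3 and Gtf2a1l, a germ-cell form of a general transcription factor, were the 3 of 8 factors whose groups did not overlap, against 27.9% of all genes tested. Figla had 8.46, 8.21 and 8.33 in Uba3 cKO libraries and 8.52, 8.78 and 8.50 in control libraries, a difference of -0.26 (adjusted p = 0.180 in limma). Tcf3 differed by -0.26 (adjusted p = 0.136) and Gtf2a1l by -0.23 (adjusted p = 0.152). The list had a median of -0.05, against -0.01 over all genes tested.

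Of the 25 genes that build and attach the GPI anchor of proteins such as JUNO, 2 fell, none rose and 23 were not called, with a median difference of -0.07. Over all genes tested 2.5% fell and 5.64% rose. Gpaa1, a subunit of the transamidase that joins the anchor to the protein, had 6.38, 6.44 and 6.43 in Uba3 cKO libraries and 6.77, 6.83 and 6.90 in control libraries. It fell by 0.42 (SE 0.09, adjusted p = 0.00941 in limma). Pgap1, an enzyme that trims the anchor after attachment, had 9.93, 9.99 and 10.06 in Uba3 cKO libraries and 10.33, 10.33 and 10.36 in control libraries. It fell by 0.35 (SE 0.09, adjusted p = 0.0342). The call of Gpaa1 was lost without control replicate 3 (adjusted p = 0.0543), and that of Pgap1 without any single library except control replicate 1 (up to 0.143) and without a filter (0.0656).

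Of 16 tetraspanins, CD9 partners and egg integrins, 1 rose, against 5.64% of all genes tested. None fell and 15 were not called, with a median of -0.03. Itgb1, the beta 1 integrin chain, stood at 11.65, 11.64 and 11.65 in Uba3 cKO libraries and at 11.39, 10.89 and 11.28 in control libraries, and rose by 0.46 (SE 0.12, adjusted p = 0.0267 in limma). Of 16 genes of zona protein processing and glycosylation, 1 rose, against the same 5.64% of all genes tested. None fell and 15 were not called, with a median of 0.02. Mgat5, which adds branches to N-linked glycans, stood at 10.56, 10.41 and 10.51 in Uba3 cKO libraries and at 10.26, 10.03 and 9.93 in control libraries, and rose by 0.42 (SE 0.11, adjusted p = 0.0262). The call of Itgb1 was lost without any single library except control replicate 1 (adjusted p up to 0.0910) and without an intensity trend (0.0582), and that of Mgat5 without Uba3 cKO replicates 1 or 3 or control replicates 2 or 3 (up to 0.139). Somatic cells of the ovary also express Itgb1. Of their markers, Fshr (0.42) and Kitl (0.44) of the granulosa list rose, but the kept markers of that list had a median of -0.04. Of those not called, Inha (-0.40), Gja1 (-0.16), Amhr2 (-0.11), Foxl2 (-0.11) and Cyp19a1 (-0.09) were negative. Amh (0.40), Nr5a2 (0.12) and Has2 (0.01) were positive. Of the 11 kept theca, stroma and luteal markers 6 fell, against 2.5% of all genes tested. The part of such cells in the value of Itgb1 was not tested.

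None of the 14 kept genes of cortical granule traffic and exocytosis was called, against 8.14% of all genes tested in either direction. None had an unadjusted p under 0.05 in limma, and the share of all genes under that value was not counted. Snap25, a neuronal SNARE, lay under the filter. Nsf, which recycles SNARE complexes, stood at 12.66 in Uba3 cKO and 12.76 in control oocytes, and Rab11a, a GTPase of cortical granule movement, at 12.69 in Uba3 cKO and 12.58 in control oocytes. The median of these genes was 0.05.

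**Figure D4:**
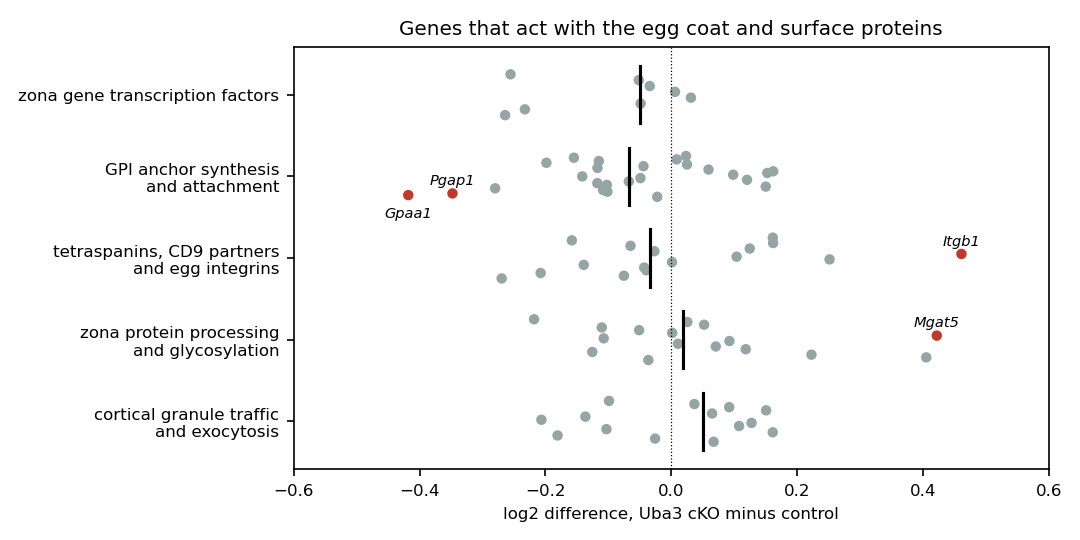
Log2 difference between Uba3 cKO and control oocytes for the genes of 5 lists that act with the egg coat and surface proteins. Each point is a gene, black bars are list medians (-0.07 to 0.05), and the 4 called genes are named, from Gpaa1 at -0.42 to Itgb1 at 0.46.

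The mean log2 level of Zp1, Zp2 and Zp3 was 14.22, 14.00 and 14.01 in Uba3 cKO libraries 1, 2 and 3, and 14.05, 14.07 and 14.26 in control libraries 1, 2 and 3. It was high in Uba3 cKO library 1 and control library 3, with the groups overlapping. Of 11515 genes of sufficient level, the 4 with the most similar profile over the 6 libraries were Tubb2b, a beta-tubulin (Pearson's r = 0.996), Aspscr1 (0.984), Unk (0.982) and Dynlrb1, a dynein light chain (0.980). These coefficients were picked as the highest of many and are given as a description, and none of the 4 genes was called.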

How the data were processed

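Each library came from about 150 pooled oocytes, and group and replicate number were taken from the titles. Per the submitters' processing notes, the tools were DESeq2, fastp, featureCounts and STAR and the build GRCm39, with no versions or order. The authors deposited log2 values normalized between libraries for 28738 Ensembl IDs. The values themselves (0.0363 to 18.01, with no exact 0) showed the unit, and the transform is not named. If it shrinks low levels, differences of genes at low levels are understated. The sources used here do not give strand or multi-mapping settings. The deposited values hold no counts, so depth is unknown.

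Symbols, chromosomes and transcript lengths came from GENCODE M21 (GRCm38), which named 27660 IDs, and 2 of 131 list entries were matched through RefSeq synonyms. Genes with a linear value of 10 or more in at least 3 libraries (17450) were fitted in limma 3.58.1 (R 4.3.3) with an intensity trend. Single values were compared with an exact two-sided permutation test. The fit was tested on simulated data, where it called 7 of 50 genes (14%) changed by 0.3 on the log2 scale. Of genes changed by 0.6 it called 43 of 50 (86%). It made 157 calls in all, of which 9 were false. A gene that was not called may thus still differ by about 0.3. Replicates are pools that the labels do not tie to separate animals, so p-values may measure technical spread only.

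The members and lists were chosen with earlier results of these data known. Genes named were the members, Uba3, up to 4 called genes per list by adjusted p (or the 2 highest where none was called) and the 4 most similar profiles with a mean linear value of at least 50, leaving out predicted models, clones and pseudogenes. Markers named as facts of the libraries and genes marked as such were chosen after their values were seen. Alternatives covered filter, pseudocount, scaling, variance model, library weights, a replicate block and leaving out each library.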

Additional observations from a re-analysis of the deposited data

How the results depend on the processing

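Zp2 kept its direction under all 15 alternatives tried, and its call under 13, with adjusted p from 4.15e-04 without a filter to 0.0543 without control replicate 3. Under quantile normalization 0 members were called lower, and the Zp2 to Zp3 log2 ratio difference was 0.0057 in place of -0.12. With array weights 829 genes were called lower, against 437. Leaving out 1 library at a time gave 482 to 1014 genes called higher, 136 to 623 lower, and 0 to 2 members lower. The differences of uncalled genes changed sign when some libraries were left out, with ranges of -0.0319 to 0.10 for Astl, -0.0400 to 0.14 for Cd9, -0.11 to 0.0484 for Oosp2, -0.11 to 0.15 for Nobox and -0.13 to 0.10 for Taf4b, and Nobox stood at -0.0082 with array weights. The causes were not tested. Same-numbered libraries did not deviate together (r of -0.09, -0.20 and -0.05 over 17450 genes), so the numbers are not taken as pairs. Some libraries of unlike number did. The r was 0.19 for Uba3 cKO 1 with control 3, 0.28 for Uba3 cKO 2 with control 1 and 0.25 for Uba3 cKO 3 with control 2. All other pairs had a negative r, down to -0.20. A replicate block models same-numbered libraries only, and the source of the positive values was not tested. With a replicate block 899 genes were called higher and 359 lower, Zp2 kept its call (adjusted p = 0.0286), Pgap1 lost its own (0.0720), the summed zona level differed by -0.26 and the ratios by -0.66, -0.12 and 0.54 (exact permutation p of 0.25, 0.25, 0.75 and 0.25). The number of libraries limits what can be seen.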

Other observations

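The listed markers of the oocyte had mostly negative differences. Of 8 oocyte markers, Bmp15, an oocyte growth factor, was called lower (-0.25, adjusted p = 0.0429 in limma), against 2.5% of all genes tested. None was called higher and 7 were not called. The median log2 difference of the 8 was -0.20, against -0.13 for the 9 coat and surface genes and -0.01 for all genes tested. Gdf9 (-0.17), Ddx4 (-0.11) and H1f8 (-0.26) were negative and not called. Chosen after their values were seen, 4 further markers are given. Mos, a kinase of meiotic arrest, had 13.22, 12.95 and 13.11 in Uba3 cKO libraries and 13.19, 13.60 and 13.38 in control libraries (difference -0.30, adjusted p = 0.106). Zar1, an RNA-binding protein of the oocyte, had 14.27, 13.99 and 14.07 in Uba3 cKO libraries and 14.07, 14.51 and 14.44 in control libraries (difference -0.23, adjusted p = 0.227). Of the 8 markers, only Kit, the receptor of the growth factor KITL, and Dppa3, a maternal chromatin factor, had positive differences. These were 0.25 for Kit (adjusted p = 0.161, groups not overlapping) and 0.14 for Dppa3 (adjusted p = 0.529). For Gdf9, Dppa3, Mos, H1f8 and Zar1, Uba3 cKO library 1 was the highest and library 2 the lowest of their group, and control library 1 was the lowest of its own. The same order held for Zp2, Zp3, Izumo1r, Oosp1 and Oosp2, but not for the markers Bmp15, Kit and Ddx4. Of the listed zona gene transcription factors, only Nobox had it. How many of all genes tested have this order was not counted, so it is not taken as a trait of oocyte genes.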
